A study of Rattus norvegicus with 24 samples.

Results

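The 7 genes described here encode copper transporters, a copper chaperone or proteins that act on this system: Slc31a1, Slc31a2, Atox1, Atp7a, Atp7b, Commd1 and Xiap. They were taken by name, as every array probe whose gene name in the scanner files is one of the 7. This gave 11 probes out of 30367, of which 10 passed the filter on dim probes, and the 7 genes are among 18641 genes tested. Hepatic RNA came from 24 mature male Wistar rats that were 6 months old when they went on purified diets for 12 weeks, with 1 one-colour Agilent array per rat and 6 rats per diet. Low copper meant under 0.3 mg per kg of diet and adequate copper 125 mg per kg, and each was given with 30% or 10% sucrose. The source labels of the samples call the diets with 125 mg per kg High Cu. The groups were low copper plus 30% sucrose, adequate copper plus 30% sucrose, low copper plus 10% sucrose, and the control diet of adequate copper plus 10% sucrose. All 4 diets shared the AIN76A base, with starch and dextrin making up the carbohydrate, and no group was left on the pellets that all rats ate before. The RNA is from whole liver, so fewer cells of a type and less RNA per cell cannot be told apart.

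Copper enters a cell through the plasma membrane importer CTR1, the product of Slc31a1, and the related CTR2, encoded by Slc31a2, lies mostly on inner membranes. In the cytosol the chaperone ATOX1 hands copper to the P-type ATPases ATP7A, mutated in Menkes disease, and ATP7B, mutated in Wilson disease. ATP7B is the main copper pump of hepatocytes, where it loads ceruloplasmin and sends surplus copper towards bile, while ATP7A exports dietary copper from the gut. COMMD1, whose loss causes copper storage in the liver of Bedlington terriers, acts in the trafficking of the ATPases, and XIAP, an inhibitor of caspases, marks COMMD1 for degradation. Much of this system is known to be controlled by where the proteins sit and how long they last, which an array of transcripts does not measure.

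Each probe is a 60-mer, and positions are those of the rat build rn4 in the scanner files. Slc31a1 was read by A_43_P13226 at chr5:79385906-79385965 (plus strand). Slc31a2 was read by A_42_P598560 at chr5:79292319-79292378 and by A_44_P222726 at chr5:79290091-79290150 (both plus strand). In the order of RefSeq genes on GRCr8, 1 gene, Fkbp15, lies between Slc31a2 and Slc31a1. Atox1 was read by A_42_P690274 at chr10:40861512-40861571 (minus strand). Atp7a was read by A_43_P12743 at chrX:94249710-94249769 and by A_64_P063554 at chrX:94244163-94244222 (both plus strand). Atp7b was read by A_64_P017645 at chr16:74680021-74680080 and by A_64_P017640 at chr16:74678878-74678937 (both plus strand). Commd1 was read by A_64_P041391 at chr14:103571564-103571623 (minus strand). Xiap was read by A_64_P111440 at chrX:3011760-3011819 and by A_43_P12175 at chrX:3011521-3011580 (both minus strand). The first probe named for each gene is the brighter one and stands for it below. Exon and UTR annotation of that build was not used here. The sequences of 4 probes are shown, all as in the scanner files: that of the chaperone Atox1, and those of the second probes of Slc31a2, Atp7b and Atp7a. They were picked by hand as probes taken to lie in coding sequence, which was not looked up. The readings of these second probes differ from those of the first probe of the same gene.
Atox1, A_42_P690274: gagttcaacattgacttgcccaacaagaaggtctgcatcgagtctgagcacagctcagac
Slc31a2, A_44_P222726: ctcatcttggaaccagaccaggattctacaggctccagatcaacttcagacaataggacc
Atp7b, A_64_P017640: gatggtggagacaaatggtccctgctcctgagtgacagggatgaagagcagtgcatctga
Atp7a, A_64_P063554: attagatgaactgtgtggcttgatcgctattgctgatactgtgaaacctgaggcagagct

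Levels are given as the log2 of the probe's processed signal minus the array's 75th percentile, so that 0 is the 75th percentile, and levels of different probes are not set against each other. The 75th percentile itself was between 433 and 1284 signal units, and the share of probes well above background was 59.9 to 73.4%. All 10 hepatocyte markers listed, such as albumin, were tested, and their mean level was 5.94 to 6.78 in the 24 rats. The arrays lay on 3 slides: slide 1 held the 6 rats on low copper plus 30% sucrose and 2 on adequate copper plus 30% sucrose, slide 2 held 4 on adequate copper plus 30% sucrose and 4 on low copper plus 10% sucrose, and slide 3 held 2 on low copper plus 10% sucrose and the 6 controls. Slide and diet are therefore partly confounded. No slide held both sucrose levels at 1 copper level, and none held both low copper plus 30% sucrose and the control diet. The fits of the genes were repeated with slide as a block, where these differences are reached only through other diets. Neutrophil markers, of which 5 of 6 were tested, had a mean level of -3.80 to -0.82 on adequate copper plus 30% sucrose and -4.39 to -1.83 on low copper plus 10% sucrose, against -5.16 to -4.54 on the control diet. Some other markers were called higher in the same comparisons. For copper at 10% sucrose and for sucrose at adequate copper, 3 of 5 lymphocyte markers and 1 of 7 macrophage markers were called higher in each, and 0 and 2 of 5 red blood cell markers. Stellate cell markers gave 1 and 2 of 8, and endothelial markers 1 of 5 in each. Of all genes 18.6% and 20.9% were called there, in either direction. With slide as a block the median difference of the macrophage markers turned from 0.22 to -0.28 and from 0.37 to -0.36. The medians of the stellate cell markers turned from 0.022 to -0.21 and from 0.28 to -0.14. For endothelial markers they turned from 0.028 to -0.42 and from 0.085 to -0.58. The median of the lymphocyte markers turned from 0.75 to -0.074 for sucrose at adequate copper and stayed above 0 for copper at 10% sucrose. The medians of the neutrophil and red blood cell markers stayed above 0 in both comparisons. The part of these cells in the results was not tested.

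None of the 7 genes changed with diet in limma's test with Benjamini-Hochberg adjustment over the 18641 genes, and at an unadjusted p under 0.05 the count was 0 as well. Low against adequate copper gave 0 of 7 at 30% sucrose, where 0% of all genes passed, and 0 of 7 at 10% sucrose, where 18.6% passed. Sucrose, 30% against 10%, gave 0 of 7 at adequate copper, where 20.9% passed, and 0 of 7 at low copper, where 0% passed. Low copper plus 30% sucrose against the control diet gave 0 of 7, where 1.76% passed. The mean copper difference and the mean sucrose difference gave 0 of 7 each, where 0% passed in both. The copper by sucrose interaction, the copper difference at 30% sucrose minus that at 10%, gave 0 of 7, where 20.8% passed. With slide as a block the count stayed at 0 of 7 in all 8 comparisons, and the share of all genes passing was 0.107% for copper at 30% sucrose, 0.0322% for sucrose at low copper, 0.0536% for the interaction and 0% in the others. Several of these comparisons share rats, such as the controls, and are not independent. Without the block the smallest unadjusted p of a member was 0.145, for Commd1, and the smallest adjusted p was 0.327, for Atox1, and with the block the smallest unadjusted p was 0.129, for Slc31a2 in the interaction.

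**Figure D1:**
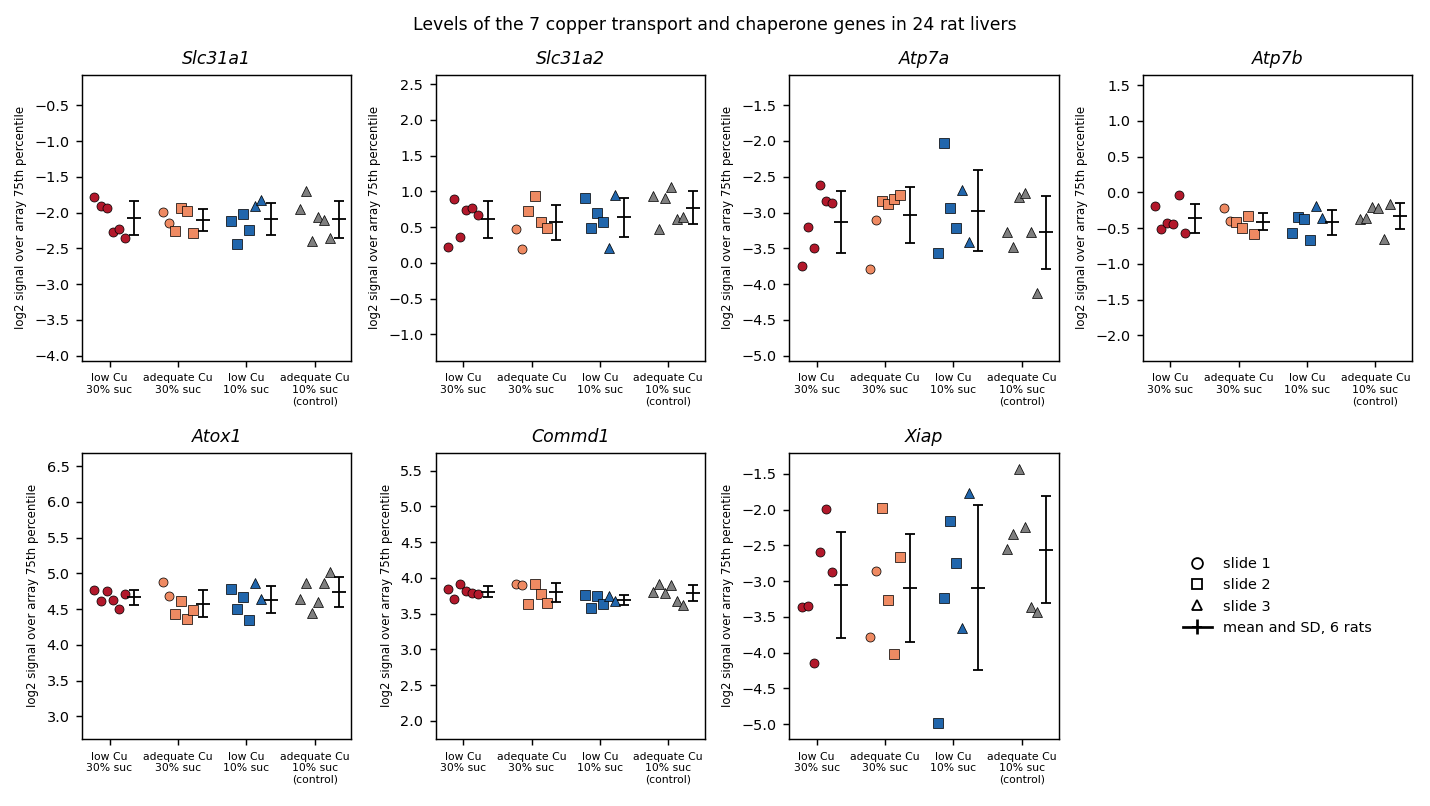
Level of each gene in each of 24 livers, as log2 signal over the array's 75th percentile, with 1 point per rat, shapes for the 3 slides, and the mean with its SD over 6 rats beside each diet. Every panel spans 4 log2 units: the points of Commd1 stay between 3.57 and 3.92, those of Xiap run between -4.98 and -1.43, and in each panel the 4 diets overlap.

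The importer gene Slc31a1 had nearly the same mean level on all 4 diets. On low copper plus 30% sucrose the lowest, median and highest levels were -2.36, -2.08 and -1.78, and on adequate copper plus 30% sucrose they were -2.29, -2.07 and -1.93. On low copper plus 10% sucrose they were -2.44, -2.07 and -1.83, against -2.40, -2.08 and -1.70 on the control diet. The diets overlapped throughout, and the 4 means lay within 0.021 log2 units of each other. Low minus adequate copper was 0.021 ± 0.13 (SE) at 30% sucrose and 0.0018 ± 0.13 at 10% sucrose, with adjusted p of 0.962 and 0.995. With slide as a block, sucrose at adequate copper gave 0.32 ± 0.24 (SE). Low copper plus 30% sucrose minus control then gave 0.31 ± 0.30. Their unadjusted p in limma's test was 0.202 and 0.319. Over the 5 differences between 2 diets, no 95% interval reached past 1.23-fold in either direction, or 1.91-fold with slide as a block.

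Slc31a2, the gene of the second member of that transporter family, was highest on average in controls, and the ranges of the 4 diets overlapped. The lowest, median and highest levels of its brighter probe were 0.22, 0.70 and 0.89 on low copper plus 30% sucrose and 0.20, 0.53 and 0.93 on adequate copper plus 30% sucrose. They were 0.21, 0.63 and 0.95 on low copper plus 10% sucrose, against 0.47, 0.77 and 1.07 on the control diet. The control range starts higher than the others but overlaps all of them. Without a slide term the largest difference was -0.21 ± 0.15 (SE), for 30% minus 10% sucrose at adequate copper. Its adjusted p was 0.351. With slide as a block this difference was -0.18 ± 0.27 (SE). Low minus adequate copper at 10% sucrose was -0.14 without and -0.19 with the block. Low copper plus 30% sucrose minus control turned from -0.17 to 0.093. The second probe gave larger differences: its mean was -3.41 ± 0.18 on adequate copper plus 30% sucrose, -3.38 ± 0.24 on low copper plus 10% sucrose and -3.07 ± 0.23 on the control diet (SD, n = 6 each). Taken alone in limma's fit over all probes, it was lower by 0.33 on adequate copper plus 30% sucrose than in controls (unadjusted p = 0.0176, adjusted p = 0.0748) and lower by 0.31 on low copper plus 10% sucrose than in controls (unadjusted p = 0.0271, adjusted p = 0.116). Its copper by sucrose interaction was 0.44 (unadjusted p = 0.0274, adjusted p = 0.101). These 3 differences of the second probe were fitted without a slide term, and the 6 controls all lay on slide 3. None of the 3 passed after adjustment, and the brighter probe of the same gene gave unadjusted p of 0.174, 0.366 and 0.403 in the same fit for these differences.

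Atox1, the gene of the cytosolic chaperone, was likewise highest on average in controls. Its lowest, median and highest levels were 4.51, 4.67 and 4.77 on low copper plus 30% sucrose and 4.37, 4.56 and 4.87 on adequate copper plus 30% sucrose. On low copper plus 10% sucrose they were 4.35, 4.66 and 4.86, against 4.45, 4.75 and 5.02 on the control diet. The ranges overlapped in each pair of diets. The difference of 30% minus 10% sucrose at adequate copper was -0.16 ± 0.11 (SE), the largest of the gene, with an adjusted p of 0.327. The 95% intervals of the 5 differences ended within 1.31-fold, or within 1.63-fold with slide as a block.

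Of the pumps, Atp7a varied more between rats than Atp7b. The levels of Atp7a, whose product exports copper from most cells other than hepatocytes, were -3.75, -3.03 and -2.61 (lowest, median and highest) on low copper plus 30% sucrose and -3.79, -2.86 and -2.76 on adequate copper plus 30% sucrose. They were -3.56, -3.08 and -2.02 on low copper plus 10% sucrose, against -4.12, -3.27 and -2.73 on the control diet. The lowest rat of all was a control and the highest was on low copper plus 10% sucrose, yet both diets' ranges overlapped. That difference, low minus adequate copper at 10% sucrose, was 0.30 ± 0.26 (SE) with an adjusted p of 0.524. The interval allowed up to 1.80-fold over the 5 differences, and up to 3.78-fold with slide as a block. The second Atp7a probe was well above background on 1 of 24 arrays, that of control rat 5, and so gives no comparison of diets.

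Atp7b, the gene of the hepatocyte pump, had diet means within 0.090 log2 units of each other. Its lowest, median and highest levels were -0.57, -0.43 and -0.04 on low copper plus 30% sucrose and -0.58, -0.40 and -0.22 on adequate copper plus 30% sucrose. On low copper plus 10% sucrose they were -0.67, -0.37 and -0.19, against -0.65, -0.28 and -0.16 on the control diet. The diets overlapped over most of their ranges. Low minus adequate copper was 0.045 ± 0.11 (SE) at 30% sucrose and -0.090 ± 0.11 at 10% sucrose, with adjusted p of 0.897 and 0.680. The intervals ended within 1.25-fold, or within 1.48-fold with slide as a block. Its second probe was not called in any of the 8 comparisons either, and the sign of its difference was opposite to that of the brighter probe for copper at both sucrose levels (-0.15 at 30% and 0.13 at 10%).

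Commd1, whose product acts in ATPase trafficking, had the smallest spread between rats of the 7 genes. It had lowest, median and highest levels of 3.70, 3.80 and 3.92 on low copper plus 30% sucrose and 3.63, 3.83 and 3.91 on adequate copper plus 30% sucrose. On low copper plus 10% sucrose they were 3.57, 3.71 and 3.75, against 3.63, 3.79 and 3.91 on the control diet. The rats on low copper plus 10% sucrose were the lowest on average, but overlapped every other diet. The difference of 30% minus 10% sucrose at low copper was 0.12 ± 0.079 (SE) with an adjusted p of 0.613, and with slide as a block it was -0.029. The intervals ended within 1.22-fold, or 1.40-fold with slide as a block.

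Xiap, the gene of the caspase inhibitor that acts on COMMD1, had the widest range. Its lowest, median and highest levels were -4.14, -3.11 and -1.99 on low copper plus 30% sucrose and -4.02, -3.06 and -1.97 on adequate copper plus 30% sucrose. They were -4.98, -2.99 and -1.77 on low copper plus 10% sucrose, against -3.43, -2.45 and -1.43 on the control diet. Controls were highest on average, by 0.49 to 0.53 log2 units, and the spread within each diet (SD 0.74 to 1.15) was larger than that gap. The adjusted p of these 3 differences was between 0.467 and 0.693. With slide as a block they were -0.15 for copper at 10% sucrose, 0.15 for sucrose at adequate copper and 0.42 for low copper plus 30% sucrose minus control. Taken alone in limma's fit, the second probe gave -0.75 for sucrose at adequate copper (unadjusted p = 0.0698, adjusted p = 0.192). It gave -0.51 for each of the other 2 differences. The intervals of the brighter probe reached 2.84-fold, and 6.80-fold with slide as a block, so they allow larger differences than those of Commd1.

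**Figure D2:**
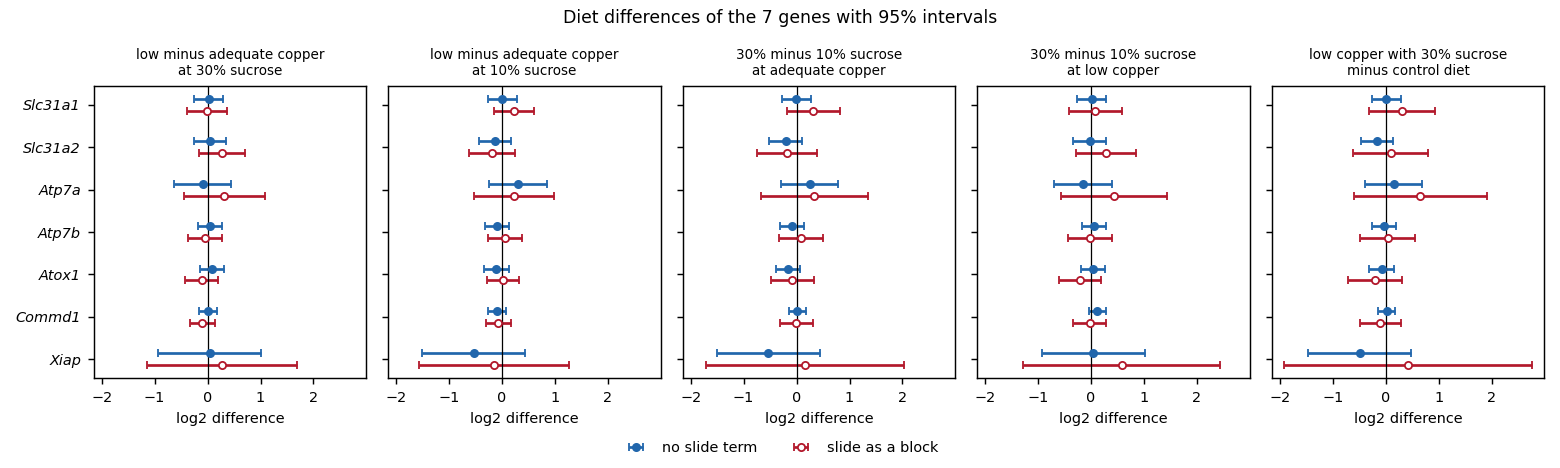
Log2 difference of each gene in the 5 comparisons between 2 diets, with 95% intervals from limma, without a slide term (filled) and with slide as a block (open). Every interval holds 0, the narrowest are those of Commd1, and the widest, of Xiap, reach 1.505 log2 units without and 2.77 log2 units with the block.

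Copper was also compared inside the slides that held both copper levels at 1 sucrose level, slide 1 at 30% sucrose (6 rats on low against 2 on adequate copper) and slide 3 at 10% sucrose (2 against 6). These differences equal the copper differences fitted with slide as a block, and only the test is another one. The mean of both within-slide differences, low minus adequate copper, was tested by an exact two-sided permutation test over 784 regroupings, whose smallest possible p is 0.00128. Slc31a1 differed by 0.11 (exact p = 0.411) and Slc31a2 by 0.039 (exact p = 0.801). Atox1 differed by -0.051 (exact p = 0.580), Atp7a by 0.27 (exact p = 0.313) and Atp7b by 0.0013 (exact p = 0.989). Commd1 differed by -0.084 (exact p = 0.110) and Xiap by 0.061 (exact p = 0.898). Commd1 was lower on low copper in both slides: on slide 1 its mean was 3.81 on low and 3.90 on adequate copper, and on slide 3 it was 3.71 on low and 3.78 on adequate copper. Neither slide gave an exact p under 0.05 (exact p = 0.179 and 0.464), with only 2 rats on 1 of the sides in each. Atp7a was higher on low copper in both slides, by 0.32 on slide 1 and 0.23 on slide 3 (exact p = 0.393 and 0.643). These p-values are not adjusted for the 7 genes.

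The genes differed more in how much rats on the same diet varied, a measure added after the levels were seen and given as a description. The SD about the diet means was 0.101 log2 units for Commd1, and 95 of the 18641 genes, 0.510%, had a smaller one. Over the 24 rats the highest level of Commd1 was 1.27-fold the lowest. Xiap stood at the other end, with an SD of 0.868, larger than that of 97.7% of genes, and an 11.7-fold range. Atp7a had an SD of 0.478, larger than that of 78.4% of genes, and a 4.28-fold range. Atp7b (SD 0.174), Atox1 (0.176), Slc31a1 (0.222) and Slc31a2 (0.254) were all below the median of all genes, 0.318. The genes were also ranked among those within 0.5 log2 units of the same mean level. There 1.97% of 661 genes varied less than Commd1, 97.8% of 2319 less than Xiap and 80.8% of 2328 less than Atp7a. Of genes at their own level, 18.6% varied less than Slc31a1, 19.6% less than Atp7b and 22.7% less than Atox1. Slc31a2 changed place most: 34.5% of all genes varied less than it, but 62.3% of the 1510 genes at its level. The mean level of a gene on an array depends on its probe, and the ranks describe these probes.

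**Figure D3:**
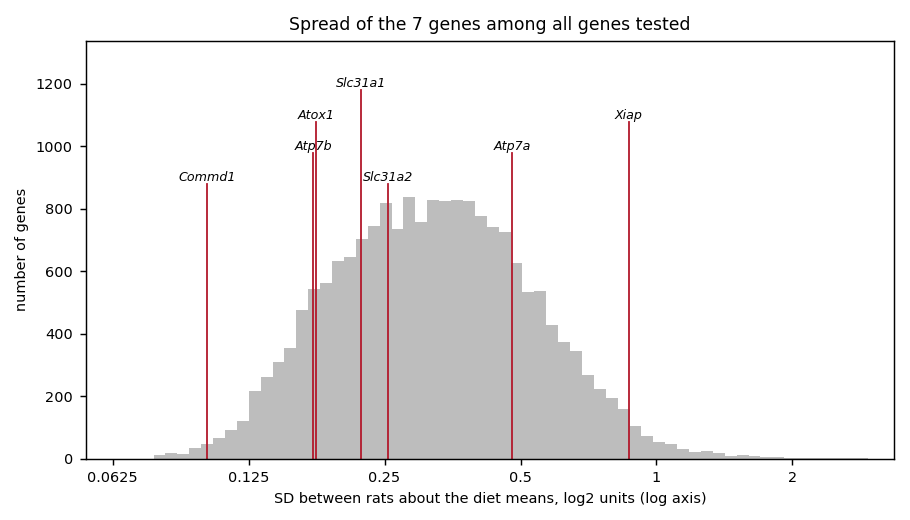
Number of the 18641 genes by their SD between rats about the diet means, in log2 units on a log axis, with a line at each of the 7 genes. Commd1 (0.101) lies in the lower tail, Xiap (0.868) in the upper tail, and the other 5 between 0.174 and 0.478.

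Where a gene had a second kept probe, the pair showed whether the variation between rats was seen by both, again a comparison added after the levels were seen. The 2 Xiap probes varied together over the 24 rats, with Pearson r = 0.942 and Spearman rho = 0.946 (permutation p = 1e-05 for both, the smallest that 100000 resamples can give). Without the 2 rats farthest from the median r was 0.924, with slide and diet means removed it was 0.951, and within slides 1, 2 and 3 it was 0.912, 0.952 and 0.970. Rats low in one Xiap probe were low in the other on every slide. The Atp7b probes gave r = 0.260 and rho = 0.324 (permutation p = 0.220 and 0.123), with r = 0.338 without 2 rats and 0.656, 0.433 and 0.206 within slides 1, 2 and 3. With slide and diet means removed their r was 0.473 (permutation p = 0.0179, adjusted p = 0.0269 over the 3 genes). The Slc31a2 probes gave r = 0.087 and rho = 0.078 (permutation p = 0.682 and 0.711), with r = 0.176 without 2 rats, -0.068 with slide and diet means removed (permutation p = 0.762), and -0.051, 0.504 and -0.150 within slides 1, 2 and 3. The probes of Atp7b thus passed with slide and diet means removed and not over all rats, and those of Slc31a2 passed in neither.

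**Figure D4:**
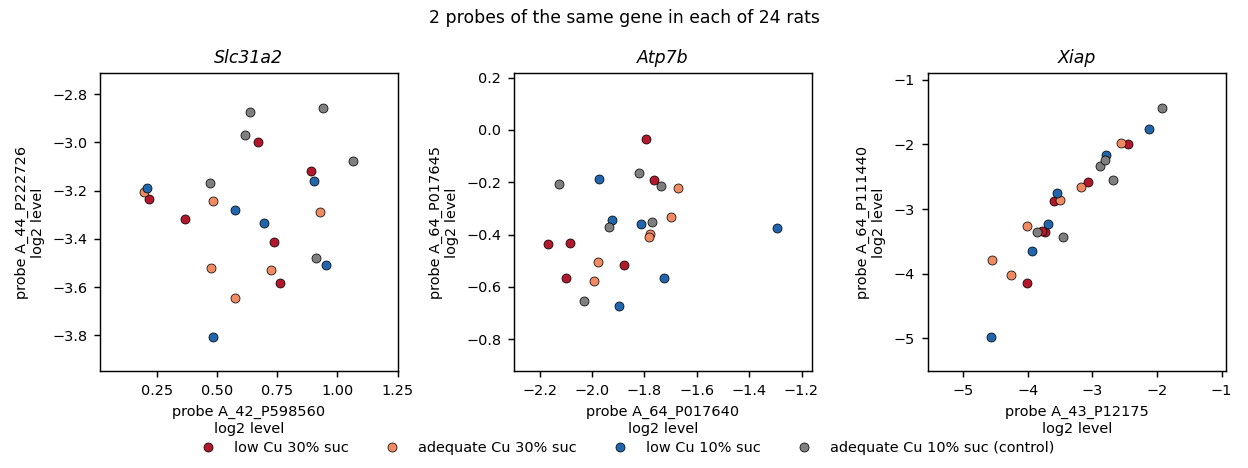
Level of 1 probe against the other probe of the same gene, as log2 signal over the array's 75th percentile, with 1 point per rat coloured by diet. The Xiap points lie along a line (r = 0.942), while those of Atp7b (r = 0.260) and Slc31a2 (r = 0.087) scatter.

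Among themselves the 7 genes were loosely related over the 24 rats. Of the 21 pairs, 10 had a positive and 11 a negative Pearson r, between -0.631 and 0.501, and 3 had an unadjusted permutation p under 0.05. After Benjamini-Hochberg adjustment over the 21 pairs 1 remained: Atp7a was lower where Atox1, the chaperone that delivers copper to its product, was higher (r = -0.631, rho = -0.631, permutation p = 0.00099, adjusted p = 0.0208). Within slides 1, 2 and 3 that r was -0.776, -0.347 and -0.630. Without the 2 rats farthest from the median of Atp7a it was -0.522 (permutation p = 0.0129, adjusted p = 0.271), and with slide and diet means removed it was -0.554 (permutation p = 0.00868, adjusted p = 0.0608), so it stayed negative but did not pass the adjustment in either. With slide and diet means removed 2 other pairs passed, Slc31a1 with Commd1 (r = 0.604, adjusted p = 0.0292) and Atox1 with Xiap (r = -0.616, adjusted p = 0.0292). Over all rats without that step, Slc31a1 with Commd1 had r = 0.501 (rho = 0.433, adjusted p = 0.142) and Atox1 with Xiap had r = -0.386 (rho = -0.454, adjusted p = 0.330). Without 2 rats these were 0.346 and -0.388. The r of Slc31a1 with Commd1 was 0.207, 0.921 and 0.388 within slides 1, 2 and 3, and that of Atox1 with Xiap was -0.781, -0.364 and -0.831. The share of all gene pairs with an r of such size was not computed. Over the same rats 382 genes had r above 0.7 with Atox1 and 76 with Atp7a, so these pairs are not read as particular.

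**Figure D5:**
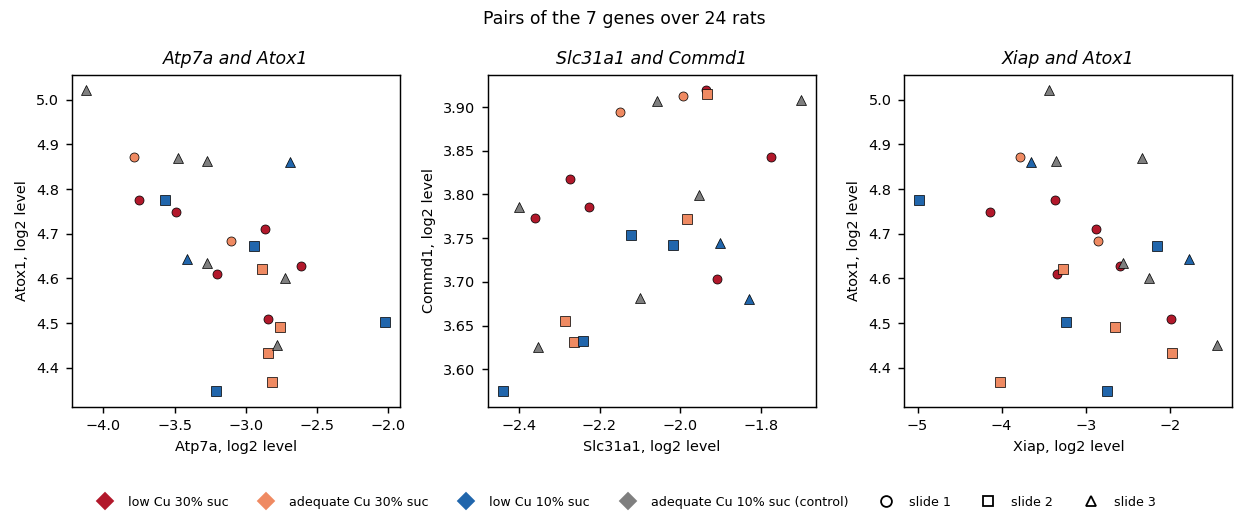
Levels of 3 pairs of genes in each rat, as log2 signal over the array's 75th percentile, with colours for the diets and shapes for the slides. Atox1 is lower where Atp7a is higher (r = -0.631), Commd1 is higher where Slc31a1 is higher (r = 0.501), and Atox1 tends to be lower where Xiap is higher (r = -0.386).

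Array brightness was set beside these levels. The log2 75th percentile of the array had r = 0.471 with Atp7a, r = -0.492 with Atp7b, r = 0.400 with Xiap, r = -0.388 with Slc31a1 and r = -0.299 with Atox1 (permutation p = 0.0215, 0.0146, 0.0525, 0.0604 and 0.156). The first principal component of all genes, with 33.2% of the variance, had r of -0.400 with Xiap and -0.353 with Atox1. Of the 14 relations of the 7 genes to these measures over all rats 0 passed the adjustment, and the smallest adjusted p was 0.150. With slide and diet means removed, brightness had r = 0.522 with Atp7a, -0.534 with Atp7b and 0.429 with Xiap (permutation p = 0.0105, 0.0142 and 0.0347). In that form the first component had r = 0.555 with Slc31a1 (permutation p = 0.00748). The other relations had permutation p above 0.05 there, and these p-values were not adjusted. The part of brightness in the correlations between genes was not tested.

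The genes whose levels followed each member most closely over the 24 rats are given by Pearson r, as a description chosen among 18641 genes, and unnamed probes are left out. Xiap went with Map3k7 (r = 0.915), the gene of the kinase TAK1, with Larp1 (r = 0.891) and with the monocarboxylate transporter gene Slc16a1 (r = 0.889), and 325 genes had r above 0.7 with it. Atox1 went with Tmem205 (r = 0.874), Ndufb11 (r = 0.874), a subunit of respiratory complex I, and Hsd17b10 (r = 0.862), a mitochondrial dehydrogenase, and 382 genes had r above 0.7. Atp7a went with Arrdc1 (r = 0.876) and Bicd2 (r = 0.831), a cargo adaptor of dynein, with 76 genes above 0.7. Atp7b went with Prkaca (r = 0.809), the catalytic subunit of protein kinase A, Arf5 (r = 0.791) and Lypla2 (r = 0.778), with 12 genes above 0.7. Commd1 went with Churc1 (r = 0.850), with 65 above 0.7, and Slc31a2 with Uck1 (r = 0.806), with 61 above 0.7. Slc31a1 had 7 genes above 0.7. With slide means removed, the named genes kept r between 0.736 and 0.919. No member was among the 3 genes most like another.

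Of 88 other copper genes, in 8 lists that hold the COMMD1 partners, mitochondrial copper delivery, copper enzymes, metallothioneins, reductases, regulators, XIAP partners and other copper-binding proteins, 73 were tested. Copper at 10% sucrose called 2 higher and 0 lower of the 73, where 18.6% of all genes passed: Mt4, a metallothionein (difference 0.86), and Steap2, a metalloreductase (0.49). The other 2 metallothioneins tested were below 0 there and did not pass, Mt1a at -0.89 and Mt2A at -0.84. Sucrose at adequate copper called 4 higher and 3 lower, where 20.9% of all genes passed: Mt4 (0.999), Steap2 (0.47), the plasma ferroxidase gene Cp (0.79) and its relative Hephl1 (0.77) were higher, and Commd5 (-0.43), Cox11 (-0.34) and the lysyl oxidase gene Lox (-2.22) were lower. Low copper plus 30% sucrose against the control diet called Steap2 higher (0.67) and Mt1a lower (-1.82), where 1.76% of all genes passed. The interaction called 3 above and 2 below 0, where 20.8% passed, and the other 4 comparisons called 0. None of these passed with slide as a block. The differences of Mt4 were then 0.27 for copper at 10% sucrose and -0.046 for sucrose at adequate copper, and that of Hephl1 was -0.036, while Cp was at 0.77, Lox at -2.96, Cox11 at -0.59 and Mt1a at -2.54. The Commander and retromer list, which holds the partners of COMMD1, had 15 of 17 genes tested, of which sucrose at adequate copper called 1 lower, Commd5, with a median difference of -0.032, against 0.067 over all genes. The interaction called 1 of them above 0, Vps26a (0.43), with a median of 0.21, against -0.098 over all genes. Copper at 30% sucrose called 0, with 13 of 15 above 0 and a median of 0.16, against -0.042 over all genes. These medians were -0.067, 0.041 and 0.052 with slide as a block. Of the XIAP partners 10 of 11 were tested and 0 were called in any comparison.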

How the data were processed

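Per the file headers, the scanner text was written by Agilent Feature Extraction 10.7.3.1, probe positions refer to rn4, and the deposited intensity used here had the background taken off and spatial trends removed per array, with no scaling between arrays. The authors' series table, used as an alternative, holds a score centred at a median of 0, with a spread (interquartile range) of 1 per array and no stated scale. It was multiplied by 662 and raised by 80.4, with a floor of 5, before log2. The deposited spot marks are of the unit other.

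Non-control spots (58717 per array) were put on log2 scale, less the array's 75th percentile, and averaged per probe. Spots with a non-uniformity or outlier mark (0.652%) were dropped, unless a probe had no other. Probes well above background on at least 6 of 24 arrays were kept (21179 of 30367), and the brightest kept probe stood for a gene name. No probe of the 7 genes was saturated on any array (0 of 24). Differences were fitted on all genes with limma 3.58.1 in R 4.3.3, with a mean per diet, two-sided, Benjamini-Hochberg at 0.05 in each of 8 comparisons, and the fit was tested on simulated data. Each rat is a separate animal. Correlations used 100000 resamples.

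The 7 genes, the 8 copper lists and the markers were chosen with earlier results of these data known. Named by rule are the members, the 3 genes most like each, and up to 3 genes per copper list. The spread between rats, the agreement of probes and the relations to array brightness were added after levels were seen. Alternatives were normexp (offset 50), quantile normalization, the authors' table, other filters, slide or replicate number as a block, averaged or separate probes, an intensity trend, array weights, only the groups compared, and leaving out each rat. RefSeq names matched all 7 genes.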

Additional observations from a re-analysis of the deposited data

Results flagged for a closer look

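Each probe was examined in each diet of 6 rats, 44 groups in all, for a highest or lowest rat that stands apart by Dixon's criterion, a gap to the next rat above 0.625 of the range. Chance alone gives about 1 in 20 such groups, and 3 rats stood apart. Atp7a by probe A_43_P12743 was -3.79 in rat 1 on adequate copper plus 30% sucrose, below the -3.11 to -2.76 of the other rats on that diet. Atp7a by probe A_64_P063554 was -3.02 in control rat 5, above the -7.76 to -6.50 of the other controls, and this was the 1 array on which that probe was well above background. Atp7a by the brighter probe was -3.27 in the same control rat, inside the range of its diet. Atp7b by probe A_64_P017640 was -1.29 in rat 3 on low copper plus 10% sucrose, above the -1.97 to -1.73 of the others, while the brighter Atp7b probe was -0.38 in that rat, inside the range of its diet. No gene had every rat of 1 copper or sucrose comparison on one side and every rat of the other on the opposite side.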

How the results depend on the processing

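Over 37 alternative settings 0 of the 7 genes passed the threshold in any comparison, each probe taken separately included, and the smallest adjusted p was 0.0640. Of 1995 tests of a member under an alternative, 4 had an unadjusted p under 0.05: Commd1 in the mean sucrose difference (0.12, from the authors' deposited table), and Slc31a2 as the mean of its probes, for copper at 10% sucrose (-0.22), sucrose at adequate copper (-0.27) and the interaction (0.31). Apart from these, 3 of 80 tests of separate probes had an unadjusted p under 0.05, all of the second Slc31a2 probe, and 0 passed the adjustment. The directions of the members were not stable, as is possible for differences near 0, and they are not read as results. The settings without a filter on dim probes, with a filter on all 24 arrays, with an intensity trend or with only the groups compared turned 0 signs. These settings leave the probe and the diet means of each member as they were, so they could not turn a sign. Replicate numbers of the labels were not taken as pairs of rats. Same-numbered rats had correlations of -0.29 to 0.36, which were not set against those of differently numbered rats. With the replicate number as a block 0 members were called and 0 of 56 signs turned. Each replicate number occurs once in every diet, so this block could not change a difference either. What follows gives each difference, in log2 units, whose sign differs from the main value, and the cause was not tested. With slide as a block 32 of 56 signs turned. Copper at 30% sucrose gave -0.11 for Atox1, 0.32 for Atp7a, -0.053 for Atp7b, -0.097 for Commd1 and -0.0091 for Slc31a1, and copper at 10% sucrose gave 0.012 for Atox1 and 0.055 for Atp7b. Sucrose at adequate copper gave 0.088 for Atp7b, -0.0045 for Commd1, 0.32 for Slc31a1 and 0.15 for Xiap, and sucrose at low copper gave -0.21 for Atox1, 0.43 for Atp7a, -0.020 for Atp7b, -0.029 for Commd1 and 0.29 for Slc31a2. Both changes against control gave 0.036 for Atp7b, -0.10 for Commd1, 0.093 for Slc31a2 and 0.42 for Xiap, and mean copper gave 0.0013 for Atp7b, 0.039 for Slc31a2 and 0.061 for Xiap. Mean sucrose gave 0.034 for Atp7b, -0.017 for Commd1, 0.054 for Slc31a2 and 0.36 for Xiap, and the interaction gave -0.13 for Atox1, 0.094 for Atp7a, -0.11 for Atp7b, -0.024 for Commd1 and -0.24 for Slc31a1. With slide as a random block 7 turned. Low copper at 30% sucrose gave -0.012 for Commd1 and -0.0032 for Slc31a1, and sucrose at adequate copper gave 0.050 for Slc31a1. Sucrose at low copper gave -0.023 for Atox1, -0.0014 for Slc31a1 and 0.029 for Slc31a2, and the interaction gave -0.052 for Slc31a1. With normexp background correction 7 turned. There, copper at 30% sucrose gave -0.024 for Slc31a1 and -0.073 for Xiap, and sucrose at adequate copper gave 0.091 for Slc31a1. Higher sucrose at low copper gave -0.0033 for Slc31a1 and -0.072 for Xiap, and mean copper gave 0.017 for Atox1. The interaction gave -0.094 for Slc31a1. With quantile normalization 9 turned. Here, copper at 30% sucrose gave -0.029 for Commd1, and copper at 10% sucrose gave -0.18 for Slc31a1. Higher sucrose at adequate copper gave -0.027 for Atp7a, and both changes against control gave -0.031 for Atp7a and -0.074 for Slc31a1. Mean copper gave -0.0011 for Atp7a and -0.050 for Slc31a1, and mean sucrose gave -0.030 for Atp7a and -0.024 for Slc31a1. In the authors' deposited table the sign turned for 9. Copper at 30% sucrose gave -0.016 for Commd1, and copper at 10% sucrose gave 0.0040 for Commd1 and -0.092 for Slc31a1. Sucrose at adequate copper gave -0.022 for Atp7a, and both changes against control gave -0.029 for Atp7a. Mean copper gave 0.0091 for Atox1 and -0.0064 for Slc31a1, and mean sucrose gave -0.049 for Atp7a. The interaction gave -0.020 for Commd1. With array weights 9 turned. Then copper at 30% sucrose gave -0.23 for Xiap, and copper at 10% sucrose gave -0.086 for Slc31a1. Higher sucrose at adequate copper gave -0.038 for Commd1, and both changes against control gave -0.0085 for Commd1 and -0.013 for Slc31a1. Mean copper gave 0.0053 for Atox1 and -0.036 for Atp7a, and mean sucrose gave 0.0019 for Atp7b and -0.018 for Slc31a1. With the mean of the probes of a gene 6 turned. Copper at 30% sucrose gave -0.052 for Atp7b, and copper at 10% sucrose gave 0.021 for Atp7b. Sucrose at adequate copper gave 0.0033 for Atp7b, and sucrose at low copper gave -0.070 for Atp7b and 0.036 for Slc31a2. The interaction gave -0.073 for Atp7b.

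Leaving out each of 24 rats in turn turned 0 to 10 signs per rat and called 0 members, and 26 of the 56 differences changed sign at least once. Copper at 30% sucrose ran over -0.25 to 0.029 for Atp7a, -0.021 to 0.085 for Atp7b, -0.023 to 0.034 for Commd1, -0.040 to 0.077 for Slc31a1, -0.031 to 0.12 for Slc31a2 and -0.17 to 0.27 for Xiap. Copper at 10% sucrose ran over -0.059 to 0.081 for Slc31a1. Sucrose at adequate copper ran over -0.020 to 0.045 for Commd1 and -0.069 to 0.071 for Slc31a1. Sucrose at low copper ran over -0.027 to 0.076 for Atox1, -0.27 to 0.037 for Atp7a, -0.012 to 0.100 for Atp7b, -0.058 to 0.068 for Slc31a1, -0.11 to 0.048 for Slc31a2 and -0.34 to 0.31 for Xiap. Both changes against control ran over -0.020 to 0.27 for Atp7a, -0.10 to 0.0044 for Atp7b, -0.0093 to 0.047 for Commd1 and -0.047 to 0.093 for Slc31a1. Mean copper ran over -0.040 to 0.019 for Atox1, -0.055 to 0.0028 for Atp7b and -0.019 to 0.051 for Slc31a1. Mean sucrose ran over -0.039 to 0.14 for Atp7a, -0.046 to 0.0096 for Atp7b and -0.033 to 0.042 for Slc31a1. The interaction ran over -0.059 to 0.081 for Slc31a1.

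Inside single slides the copper difference also changed sign against the mean of both slides: on slide 1 alone it was -0.0091 for Slc31a1 and -0.053 for Atp7b, and on slide 3 alone -0.19 for Slc31a2, 0.012 for Atox1 and -0.15 for Xiap. These are the same values as the copper differences with slide as a block, not further ones. Of the correlations, that of Atp7a with Atox1 (-0.63) no longer passed without 2 rats (-0.52) or with slide and diet means removed (-0.55), while that step made Slc31a1 with Commd1 (0.60) and Atox1 with Xiap (-0.62) pass. With slide and diet means removed the sign turned for Slc31a1 with Atp7b (-0.053), Slc31a2 with Commd1 (0.087), Atp7a with Atp7b (0.10) and Atp7b with Atox1 (-0.088), and without 2 rats for Slc31a2 with Commd1 (0.0092) and Atp7a with Atp7b (0.061).

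The counts over all genes, beside which the members' 0 is read, depended on the setting. With slide as a block copper at 10% sucrose fell to 0 genes, against 3469 without it, sucrose at adequate copper to 0, against 3888, and the interaction to 10, against 3884. With slide as a random block these were 2286, 1231 and 1808. Normexp gave 2056 and 2342 for the first 2, quantile normalization 2110 for copper at 10% sucrose, the authors' deposited table gave 1950, 2463 and 2393, and a filter on all arrays 1866, 2267 and 2294. Low copper with 30% sucrose against control called 328 genes, and 0 to 986 as each rat was left out, with 15 of 24 rats moving it by over 1.5 times, 2126 with array weights, 639 with the replicate block and 986 with only both groups fitted. It called 75 without a filter, 10 with a filter on all arrays, 6 with quantile normalization, 2 in the authors' deposited table, 0 with normexp and 0 with slide as a block of either kind. The mean copper difference called 0 genes, 875 with array weights, 1 in the authors' deposited table and 19 without rat 6 on low copper plus 10% sucrose. Copper at 30% sucrose called 0 and 20 with slide as a block, sucrose at low copper 0, 6 with that block and 0 to 41 as each rat was left out, and mean sucrose 0 and 0 to 1. The slide-blocked copper differences rest on only 2 rats of 1 diet on each shared slide. The sucrose differences, and that of low copper with 30% sucrose against control, join diets that share no slide. The slide-blocked intervals are wide.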
